A study of Homo sapiens with 12 samples.

Results

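The complement genes described here are C1S, C1R, C1RL, C3, CFB and CFI, grouped as secreted components, and CD46, CD55 and CD59. The component group includes C1RL, which encodes a C1r-like protease, and CFI, whose protein inactivates cleaved C3. CD46, CD55 and CD59 encode regulators of the cascade on the cell membrane. The genes were chosen by symbol with earlier results of these data known, so the shares of all genes set beside them are for description. Of the 9 symbols, 8 have a row among the 4918 genes used here, namely 5 secreted components and 3 membrane regulators. CFB was not analysed here. The cells were A375, an established human melanoma line, and RNA was sequenced from 3 samples in each of 4 groups. Control cells received no treatment according to their labels, and the other groups received SB-3CT, a small-molecule inhibitor of the gelatinases MMP2 and MMP9, interferon gamma (IFNγ), or both (SB-3CT + IFNγ), with RNA taken after 24 h. The labels do not state doses, nor whether the 3 samples of a group were separate cultures, so the p-values measure the spread between these samples, which may be technical. All 12 samples come from 1 cell line, grown without immune cells, and no protein or complement activity was measured.

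The unit is FPKM, the number of sequenced fragments relative to transcript length and to the sample's mapped fragments, so levels can be set side by side between genes. Changes are differences of log2(FPKM + 1) in limma, and p-values were adjusted over all 4918 genes by the Benjamini-Hochberg method. This scale understates the change of a gene whose FPKM is low. The total number of reads was not given. The steps in the lowest FPKM values placed the depth of the samples between 87.0% and 149.9% of the mean of the controls. CXCL10, an IFNγ-induced chemokine gene that served as a check of the labels, was at 0, 0 and 0.050 FPKM in the controls, was also listed at 0 in all 3 samples of SB-3CT, and lay between 78.7 and 122 FPKM in the 6 samples with IFNγ. CD274, which encodes PD-L1, the protein whose regulation the study followed, had a mean of 0.543 FPKM in the controls and of 21.7 FPKM with IFNγ. Of 7 melanocyte markers, ERBB3 had a mean of 57.1 FPKM, EDNRB 5.83 FPKM and CDH19 4.66 FPKM in the controls, BCL2A1 had a mean of 0.784 FPKM there and of 6.89 FPKM with IFNγ, and DCT, CAPN3 and ABCB5 stayed under 1 FPKM in all 12 samples. Of 2 markers of dedifferentiated melanoma, AXL had a mean of 41.2 FPKM and EGFR of 1.15 FPKM in the controls. All measured markers of T cells (3 genes), B cells (3), endothelium (3), fibroblasts (4), epithelium (1) and hepatocytes (4) were under 1 FPKM in every sample. Of the 3 myeloid markers measured, CD14 and CSF1R were under 1 FPKM in every sample, and CD68, a lysosomal gene, lay between 19.8 and 31.6 FPKM.

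Complement is a cascade of plasma proteases that marks surfaces for uptake or lysis. In the classical pathway the proteases C1r and C1s form a complex with C1q, C1r activates C1s, and C1s cleaves the components from which the C3 convertase is built. C3 is the component on which all the pathways converge. Factor I (CFI) is a protease that inactivates the cleaved forms of C3 and C4, and it needs cofactors for this, among them CD46 on the membrane. CD55 hastens the decay of the convertases, and CD59 blocks the assembly of the membrane attack complex, so that CD46, CD55 and CD59 keep a cell from being attacked by complement. The liver is the main source of the plasma components, and other cell types can make them under the influence of cytokines such as IFNγ.

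The GAS element, the gamma-activated sequence known from promoters of IFNγ-induced genes, has the letters TTCNNNGAA and reads the same on both strands. The 250 bases before annotated starts (RefSeq, GRCh38.p14) were searched for it. RefSeq starts were at hand for 6 of the 8 genes, 11 starts in all, and not for C1S or C3. The element lay in the windows of C1R, C1RL and CD59, which are shown because C1R was among the most strongly induced genes while the other pair moved little. Capitals mark the element.
C1R, its second listed start, minus strand, chr12:7091894-7092143: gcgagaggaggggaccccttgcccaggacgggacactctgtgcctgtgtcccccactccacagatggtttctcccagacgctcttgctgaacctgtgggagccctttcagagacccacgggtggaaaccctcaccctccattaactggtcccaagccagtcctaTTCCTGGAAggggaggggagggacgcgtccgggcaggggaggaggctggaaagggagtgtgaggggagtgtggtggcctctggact
C1RL, minus strand, chr12:7109215-7109464: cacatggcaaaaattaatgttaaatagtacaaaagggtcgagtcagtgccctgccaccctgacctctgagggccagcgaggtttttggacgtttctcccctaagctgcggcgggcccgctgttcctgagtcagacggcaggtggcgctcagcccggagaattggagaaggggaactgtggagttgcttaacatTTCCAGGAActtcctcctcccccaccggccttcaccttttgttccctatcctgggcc
CD59, its first listed start, minus strand, chr11:33736480-33736729: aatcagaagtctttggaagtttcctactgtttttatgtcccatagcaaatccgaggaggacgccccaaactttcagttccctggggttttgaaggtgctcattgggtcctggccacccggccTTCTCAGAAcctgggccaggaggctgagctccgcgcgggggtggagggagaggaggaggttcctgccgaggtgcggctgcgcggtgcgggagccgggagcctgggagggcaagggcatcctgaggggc
The element began 86 bases before the start in C1R, 57 bases before it in C1RL and 128 bases before it in CD59, where the second listed start, whose window overlaps this one, holds the same element 184 bases before it. No match was found in the window of the first listed start of C1R, in those of the other 2 starts of CD59, or in those of CFI, CD46 and CD55. Among all 35116 starts of the table, 6.57% have the element in a window of this length. These matches describe the letters of the windows, and binding was not measured.

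In the controls the membrane regulators were far above the secreted components. CD59 had a mean of 52.2 FPKM, CD46 of 34.9 FPKM and CD55 of 32.0 FPKM, and the samples of CD46 and CD55 overlapped. CFI followed at 7.49 ± 0.428 FPKM (SD, n = 3), above C3, C1R and C1RL, which lay between 2.43 and 3.06 FPKM in all 9 values and overlapped one another. C1S was lowest at 0.236 ± 0.153 FPKM (SD, n = 3). Of the 4918 genes, 24.2% had a lower control mean than C1S, 45.9% a lower one than C1R and 90.6% a lower one than CD59. In bulk RNA, fewer cells that express a gene and less RNA of it per cell cannot be told apart, here and in all comparisons.

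With IFNγ, the messages of both proteases of the C1 complex and that of C3 rose, CFI rose less, and CD46, CD55 and CD59 did not pass the test for a rise. In limma, with adjusted p-values under 0.05 taken as calls, 4 of the 5 components were higher, where 8.46% of all genes were higher, and 1 of the 3 regulators was lower, where 11% of all genes were lower. The samples of 6 members lay wholly above the controls and those of CD55 wholly below, where 15% of all genes lay above and 22% below. The median change on the log2 scale was 2.54 over the 5 components, 0.05 over the 3 regulators and -0.02 over all genes.

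**Figure D1:**
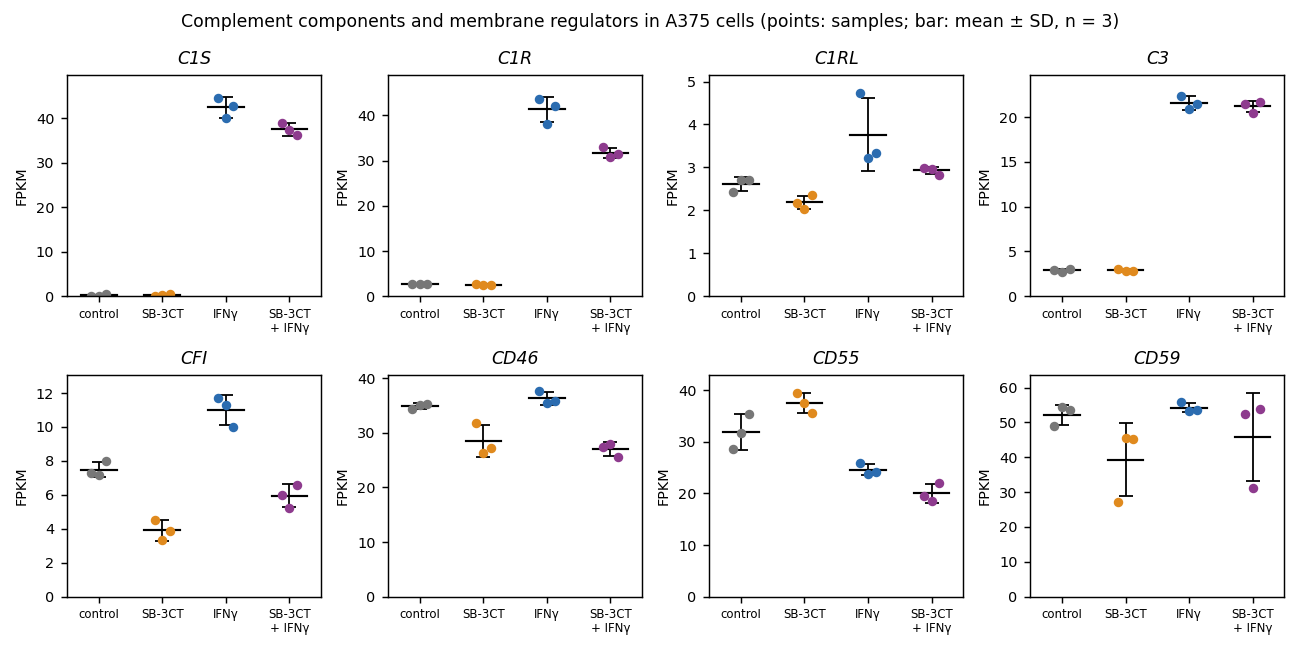
FPKM (vertical axes, starting at 0, each with its own scale) of the 8 genes in the 12 samples. Points are samples and bars are the mean ± SD of 3 samples in control, SB-3CT, IFNγ and SB-3CT + IFNγ cells. The points of C1S, C1R and C3 with IFNγ lie far above those without it, those of CFI are lower with SB-3CT in both settings, and 1 point of CD59 lies apart in each SB-3CT group.

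C1S (chr12:7096351-7178336, hg19, plus strand) encodes the protease that carries out the cleavage step of the C1 complex. Its level was 0.139, 0.156 and 0.412 FPKM in the controls and 44.6, 40.0 and 42.9 FPKM with IFNγ. The groups were far apart, the lowest IFNγ sample being 97.0-fold above the highest control, and the means differed 180-fold. On the log2(FPKM + 1) scale the change was 5.14 (standard error, SE, 0.10, adjusted p = 1.57e-06 in limma). C1S thereby moved from the lowest of the 8 genes to the second highest by its mean, with 88.9% of all genes below it.

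C1R (chr12:7187513-7245203, minus strand), which encodes the protease that activates C1s, lies beside C1S on chromosome 12 on the other strand. It was at 2.73, 2.77 and 2.66 FPKM in the controls and at 43.7, 38.1 and 42.1 FPKM with IFNγ. The change was 3.51 (SE 0.06, adjusted p = 1.57e-06 in limma), a 15.2-fold difference of the means. The 2 messages were thus unequal without IFNγ and nearly equal with it. The ratio of C1R to C1S was 19.7, 17.8 and 6.45 in the controls and 0.980, 0.953 and 0.982 with IFNγ, while C1R and C1S overlapped in level. In the controls this ratio rests on C1S values under 0.5 FPKM.

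C1RL (chr12:7242183-7261834, minus strand) encodes a C1r-like protease. Its annotated extent overlaps that of C1R on the same strand and that of the antisense gene C1RL-AS1 on the other, and whether the libraries kept strand is not stated, so reads of these genes could be split between them. Other annotated genes, without a row among the genes used here, overlap C1S, C3, CFI, CD46 and CD59, and the same limit applies to those levels. C1RL measured 2.43, 2.70 and 2.72 FPKM in the controls and 4.73, 3.22 and 3.33 FPKM with IFNγ. The IFNγ samples were all higher, but replicate 1 lay 0.41 on the log2 scale above the other 2, and the difference of 0.38 (95% interval 0.07 to 0.70) had an adjusted p-value of 0.0927 in limma. It passed at 0.0216 with all 12 samples in one fit, at 0.0422 after scaling each sample by its median ratio and at 0.0246 among genes with a mean of at least 1 FPKM.

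C3 (chr19:6677715-6730573, minus strand) was at 2.90, 2.71 and 3.06 FPKM in the controls and at 22.4, 20.9 and 21.5 FPKM with IFNγ. The samples of each group were close together and the groups 6.82-fold apart at the nearest. The change was 2.54 (SE 0.06, adjusted p = 3.08e-06 in limma), 7.46-fold between the means. CFI (chr4:110652164-110723306, minus strand), the protease that inactivates C3b, was at 7.30, 7.19 and 7.98 FPKM and rose to 11.7, 11.3 and 9.98 FPKM. Its change was 0.50 (SE 0.08, adjusted p = 0.00688 in limma), 1.47-fold. The groups did not overlap for either gene, and the ratio of C3 to CFI was 0.386 ± 0.0106 (SD, n = 3) in the controls and 1.97 ± 0.160 (SD, n = 3) with IFNγ.

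CD55 (chr1:207494864-207560149, plus strand) was the membrane regulator that fell with IFNγ, from 28.6, 31.8 and 35.5 FPKM to 25.9, 23.8 and 24.2 FPKM. The highest IFNγ sample lay just under the lowest control. The change was -0.36 (SE 0.08, adjusted p = 0.0288 in limma), and with 1 sample left out the adjusted p-value was between 0.0529 and 0.0986 in 5 of the 6 fits, all but that without control replicate 1. CD46 (chr1:207925382-207968858, plus strand) measured 34.4, 35.2 and 35.2 FPKM in the controls and 37.8, 35.4 and 35.9 FPKM with IFNγ. Its difference was 0.06 (95% interval -0.04 to 0.15, adjusted p = 0.393 in limma). CD59 (chr11:33724556-33758025, minus strand) measured 49.0, 54.3 and 53.4 FPKM in the controls and 55.8, 53.3 and 53.7 FPKM with IFNγ, which overlapped, and the difference was 0.05 (95% interval -0.07 to 0.18, adjusted p = 0.523 in limma). For CD46 and CD59 a change of more than 0.18 in either direction lies outside the intervals.

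**Figure D2:**
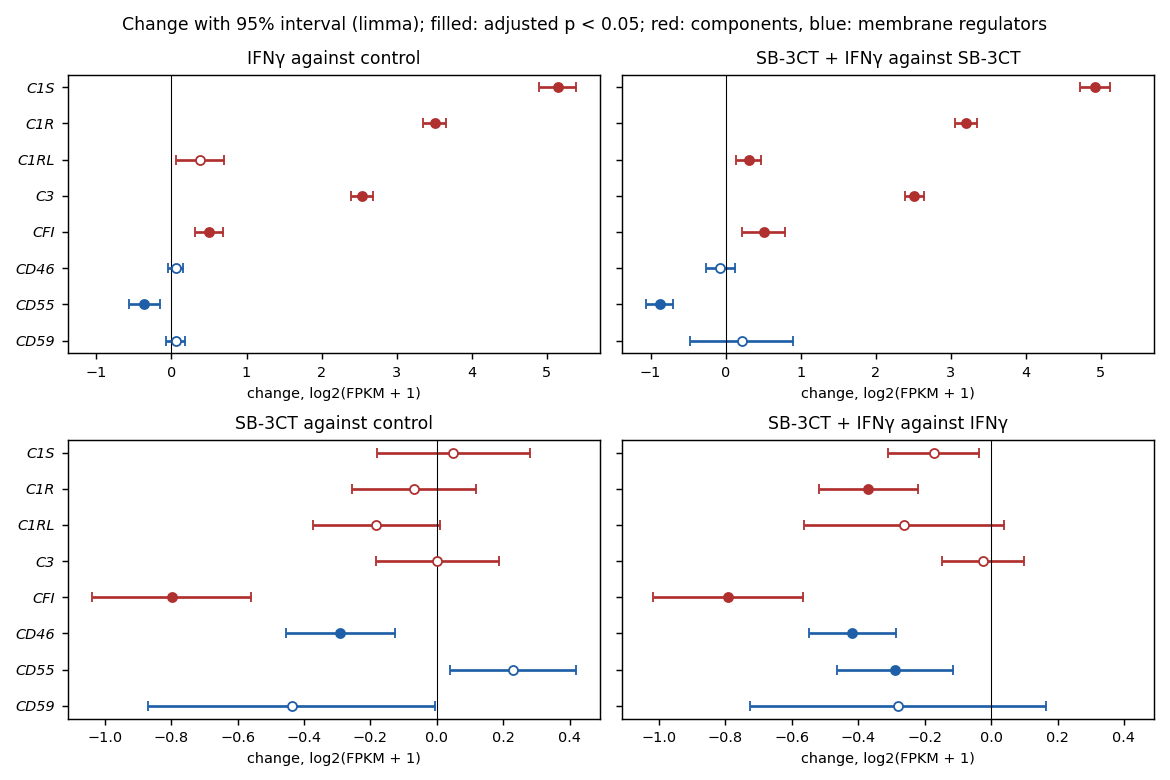
Change in log2(FPKM + 1) (horizontal axes) of the 8 genes in 4 comparisons, with 95% intervals in limma. Filled points have an adjusted p-value under 0.05, components are red and membrane regulators blue, and the upper and lower pairs of panels have different scales. With IFNγ, C1S, C1R and C3 lie to the far right in both settings and CD55 to the left of 0, and with SB-3CT the changes of CFI and CD46 are below 0 in both settings.

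Summed over their genes, the 5 components amounted to 15.9 ± 0.766 FPKM (SD, n = 3) in the controls and 120 ± 6.74 FPKM (SD, n = 3) with IFNγ. The 3 regulators summed to 119 ± 6.43 and 115 ± 3.64 FPKM (SD, n = 3). The ratio of the sums was therefore 0.134 in the controls and 1.04 with IFNγ. The component sum includes CFI, whose protein inactivates C3b, so this is not a ratio of activating to protective messages. The largest parts of the component sum with IFNγ were those of C1S, C1R and C3, with means of 42.5, 41.3 and 21.6 FPKM. With IFNγ the order of the levels was CD59, C1S, C1R, CD46, CD55, C3, CFI, C1RL, and the only neighbours in it that overlapped were C1S and C1R.

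**Figure D3:**
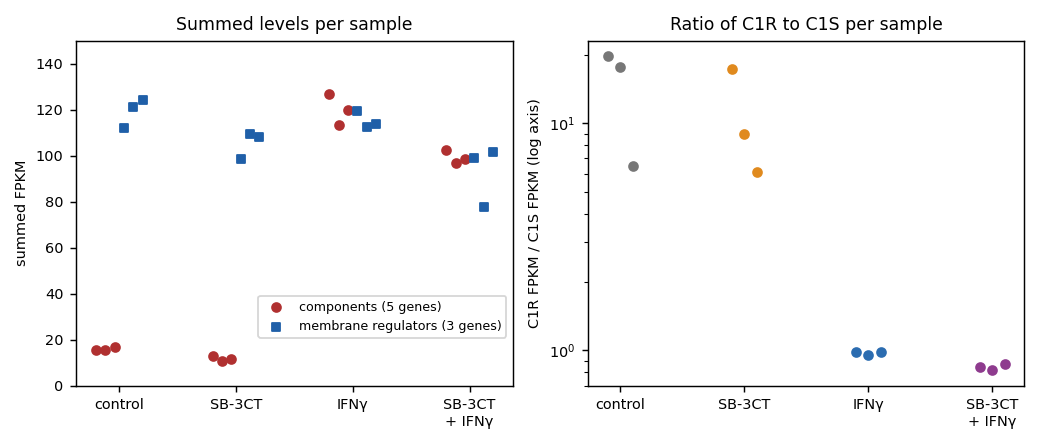
Left, summed FPKM of the 5 components (red circles) and the 3 membrane regulators (blue squares) in each of the 12 samples. Right, FPKM of C1R divided by that of C1S per sample on a log axis, by group. The component sums lie between 10.9 and 16.8 without IFNγ and between 96.8 and 127 with it, and the ratio of C1R to C1S lies between 6.11 and 19.7 without IFNγ and between 0.820 and 0.982 with it.

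The same question was asked in cells that also received SB-3CT, by comparing SB-3CT + IFNγ with SB-3CT. All 5 components were higher, where 7.85% of all genes were, and 1 of the 3 regulators, CD55, was lower, where 32.7% of all genes were. C1S went from 0.161, 0.273 and 0.393 FPKM to 39.0, 37.4 and 36.2 FPKM (change 4.92, SE 0.08, adjusted p = 1.05e-06 in limma). C1R went from 2.79, 2.46 and 2.40 FPKM to 32.9, 30.7 and 31.4 FPKM (change 3.20, adjusted p = 1.45e-06 in limma). C3 went from 3.05, 2.84 and 2.78 FPKM to 21.4, 20.5 and 21.7 FPKM (change 2.51, adjusted p = 1.95e-06 in limma). None of these groups overlapped, and the rises of all 3 genes passed under every scaling and with any 1 sample left out.

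The smaller changes with IFNγ in SB-3CT cells concerned CFI, C1RL and CD55. CFI rose from 4.52, 3.32 and 3.85 FPKM to 6.0, 5.24 and 6.59 FPKM (change 0.50, adjusted p = 0.0175 in limma), and its adjusted p-value was between 0.0554 and 0.0626 in 3 of the fits with 1 sample left out (SB-3CT replicate 3, SB-3CT + IFNγ replicates 1 and 3). C1RL rose from 2.17, 2.04 and 2.35 FPKM to 2.99, 2.97 and 2.83 FPKM (change 0.30, adjusted p = 0.0148 in limma, 0.0521 without SB-3CT + IFNγ replicate 2). CD55 fell from 39.5, 37.6 and 35.5 FPKM to 19.5, 18.5 and 22.0 FPKM, with no overlap. Its change was -0.88 (SE 0.07, adjusted p = 0.000607 in limma), and it was between -0.95 and -0.63 in all the alternatives run. In all, the samples of 5 members did not overlap upwards and those of 1 downwards, against 9.84% and 41.9% of all genes. CD46 had a difference of -0.07 (95% interval -0.26 to 0.12, adjusted p = 0.529 in limma). The median change of the 3177 genes with a mean of at least 1 FPKM was -0.21 in this comparison, and relative to it CD55 changed by -0.67 and C1S by 5.13.

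SB-3CT without IFNγ was then compared with control. CFI and CD46, a protease and one of its cofactors, fell, where 6.87% of all genes were lower. No member rose in limma at an adjusted p-value under 0.05, where 5.37% of all genes did, and 1 member, CD55, was higher at an unadjusted p-value under 0.05. CFI fell from 7.30, 7.19 and 7.98 FPKM to 4.52, 3.32 and 3.85 FPKM, a change of -0.80 (SE 0.10, adjusted p = 0.00777 in limma), with the lowest control 1.59-fold above the highest SB-3CT sample. With 1 sample left out, its adjusted p-value was between 0.051 and 0.0583 in 4 of the 6 fits (each control, SB-3CT replicate 3), at changes of -0.82 to -0.76. CD46 fell from 34.4, 35.2 and 35.2 FPKM to 31.8, 26.3 and 27.3 FPKM, a change of -0.29 (SE 0.07, adjusted p = 0.04 in limma). With 1 sample left out, its adjusted p-value was between 0.122 and 0.151 in 5 of the 6 fits, all but that without SB-3CT replicate 1.

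The SB-3CT samples lay wholly below the controls for 4 members (CFI, CD46, CD59, C1RL) and wholly above for CD55, where 19.7% and 14.2% of all genes did. Of the components called higher with IFNγ, C3, C1R and C1S had no called change with SB-3CT alone, and CFI fell as given above. C3 differed by 0.00 (95% interval -0.18 to 0.19), C1R by -0.07 (95% interval -0.26 to 0.12) and C1S by 0.05 (95% interval -0.18 to 0.28) on the log2 scale, and the samples overlapped for all 3 genes. C1RL, at 2.17, 2.04 and 2.35 FPKM, lay just under the controls, and its difference of -0.18 had an adjusted p-value of 0.181 in limma. CD55 was at 39.5, 37.6 and 35.5 FPKM against 28.6, 31.8 and 35.5 FPKM in the controls, a difference of 0.23 with an adjusted p-value of 0.106 in limma, and its lowest SB-3CT sample and highest control were equal when rounded. Among genes with a mean of at least 1 FPKM alone, the same difference of CD55 was called (adjusted p = 0.0465 in limma). The ratio of CD55 to CD46 was 0.915 ± 0.0882 (SD, n = 3) in the controls and 1.32 ± 0.0951 (SD, n = 3) with SB-3CT. The samples of the 2 groups did not overlap in it (0.832 to 1.01 and 1.24 to 1.43). Ratios between genes were not among the planned measures. This ratio sets a member whose samples lay higher with SB-3CT against 1 whose samples lay lower, so it only restates those 2 differences.

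The study's main contrast was SB-3CT + IFNγ against IFNγ. Here 4 of the 8 members were lower (CFI, CD46, C1R and CD55), where 31.5% of all genes were lower. None was higher in limma, at an adjusted p-value or at an unadjusted p-value under 0.05, where 6.41% of all genes were higher at the former. The samples of 6 members lay wholly below those with IFNγ and those of 0 wholly above, where 39.6% and 9.35% of all genes did. The median change over the 8 members was -0.28 and that over all genes -0.09. It was -0.20 over the 3177 genes with a mean of at least 1 FPKM on the deposited scale, 0.02 after median-ratio scaling and -0.01 after quantile normalization. Because this shift is as large as some of the members' changes, the changes are also given relative to it.

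CFI fell from 11.7, 11.3 and 9.98 FPKM to 6.0, 5.24 and 6.59 FPKM, with no overlap. The change was -0.79 (SE 0.10, adjusted p = 0.00218 in limma), and relative to the median gene it was -0.59. CD46 fell from 37.8, 35.4 and 35.9 FPKM to 27.3, 28.1 and 25.6 FPKM, again with no overlap. Its change was -0.42 (SE 0.06, adjusted p = 0.00247 in limma), or -0.22 relative to the median gene. Both genes passed under each scaling tried, with changes of -0.57 for CFI and -0.17 for CD46 after median-ratio scaling, and both passed with any 1 sample left out.

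C1R fell from 43.7, 38.1 and 42.1 FPKM to 32.9, 30.7 and 31.4 FPKM (change -0.37, SE 0.06, adjusted p = 0.00452 in limma), or -0.17 relative to the median gene. After median-ratio scaling its change was -0.12 (adjusted p = 0.077 in limma). The call of C1R was kept after quantile normalization (-0.27, adjusted p = 0.00999 in limma) and with any 1 sample left out. It was also kept with the length trend removed (-0.26, adjusted p = 0.0153 in limma). CD55 fell from 25.9, 23.8 and 24.2 FPKM to 19.5, 18.5 and 22.0 FPKM (change -0.29, SE 0.07, adjusted p = 0.0197 in limma), or -0.09 relative to the median gene, and its call was lost under every scaling (-0.04 after the median ratio, -0.13 after quantile normalization and -0.11 with the length trend removed). It was also lost in 4 of the 6 fits with 1 sample left out (IFNγ replicates 1 and 3, SB-3CT + IFNγ replicates 1 and 2), at adjusted p-values of 0.0653 to 0.0793.

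C3, the component at the centre of the cascade, was at 22.4, 20.9 and 21.5 FPKM with IFNγ and at 21.4, 20.5 and 21.7 FPKM with SB-3CT + IFNγ, which overlapped. The difference was -0.02 (95% interval -0.15 to 0.10, adjusted p = 0.768 in limma), or 0.17 relative to the median gene, and it turned to 0.22 (adjusted p = 0.0103 in limma) after median-ratio scaling and to 0.33 (adjusted p = 0.00673 in limma) with the length trend removed. C1S, at 39.0, 37.4 and 36.2 FPKM, lay under the IFNγ samples, but its difference of -0.17 had an adjusted p-value of 0.0514 in limma (0.0208 without IFNγ replicate 2), and it was 0.03 relative to the median gene and 0.08 after median-ratio scaling. C1RL, at 2.99, 2.97 and 2.83 FPKM against 4.73, 3.22 and 3.33 FPKM, differed by -0.26 (95% interval -0.56 to 0.04, adjusted p = 0.152 in limma), or -0.06 relative to the median gene. The ratio of C1R to C1S, in which a scaling common to all genes cancels, was 0.844, 0.820 and 0.869 with SB-3CT + IFNγ and 0.980, 0.953 and 0.982 with IFNγ, without overlap. That of C3 to CFI was 3.59 ± 0.311 (SD, n = 3) with SB-3CT + IFNγ, above the 1.97 with IFNγ.

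**Figure D4:**
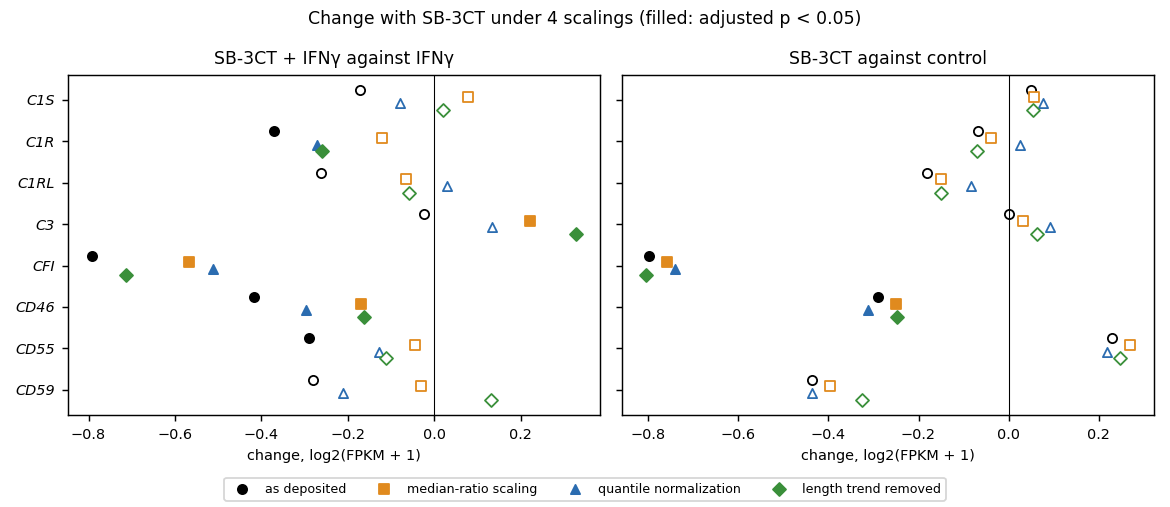
Change in log2(FPKM + 1) (horizontal axes) of the 8 genes with SB-3CT under IFNγ (left) and without it (right), on the deposited scale and under 3 other scalings, each with its own symbol. Filled symbols have an adjusted p-value under 0.05 in limma. In the left panel the symbols of CFI and CD46 are filled and below 0 under all 4 scalings, while those of C3 reach from -0.02 to 0.33.

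In the sums, the components with SB-3CT + IFNγ amounted to 99.3 ± 2.79 FPKM (SD, n = 3) and the regulators to 92.8 ± 13.2 FPKM (SD, n = 3), so that their ratio was 1.08 ± 0.145 (SD, n = 3), against 1.04 ± 0.0290 (SD, n = 3) with IFNγ. The samples of the 2 groups overlapped in this ratio, which was 1.03, 1.25 and 0.973 with SB-3CT + IFNγ, the highest in replicate 2, where CD59 was low. In the SB-3CT samples without IFNγ the sums were 11.8 ± 0.886 and 105 ± 5.95 FPKM (SD, n = 3) and the ratio 0.113. With SB-3CT + IFNγ the order of the levels was CD59, C1S, C1R, CD46, C3, CD55, CFI, C1RL, in which CD59 overlapped with C1S and C3 with CD55, and the other neighbours did not overlap. With SB-3CT alone it was CD59, CD55, CD46, CFI, C3, C1R, C1RL, C1S, and CD59 overlapped with CD55 and C3 with C1R. With a fold change over 1.5 on the log2(FPKM + 1) scale and a limma p-value under 0.05 before adjustment, 3 members were called with IFNγ (4.76% of all genes), 4 with IFNγ in SB-3CT cells (5.65%), 1 with SB-3CT (0.996%), 1 with SB-3CT under IFNγ (7.46%) and 0 in the interaction (3.27%), where 2 members had an unadjusted p-value under 0.05. For each pair of groups that did not overlap in a member, an exact two-sided permutation test gave p = 0.1, the smallest that 3 samples against 3 allow.

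Whether IFNγ altered the response to SB-3CT was tested as an interaction over all 12 samples. The difference was called for 2 of the 8 members, CD55 and C1R, both with a lower change under IFNγ, where 22.3% of all genes were called and 17.6% in that direction. For CD55 it was -0.52 (SE 0.12, adjusted p = 0.0114 in limma): with SB-3CT its level was above the controls without IFNγ (mean 37.5 against 32.0 FPKM, not called) and below with IFNγ (20.0 against 24.6 FPKM). For C1R it was -0.30 (SE 0.09, adjusted p = 0.0325 in limma). The median difference of the genes with a mean of at least 1 FPKM was -0.19, relative to which CD55 had -0.33 and C1R -0.11. The call of CD55 was lost after median-ratio scaling (-0.31, adjusted p = 0.0864), after quantile normalization (-0.35, adjusted p = 0.0621) and with the length trend removed (-0.36, adjusted p = 0.0713), and that of C1R after the first (-0.08, adjusted p = 0.455) and the last (-0.19, adjusted p = 0.145), all in limma. The call of C1R was also lost with a pseudocount of 0.1 (-0.29, adjusted p = 0.063 in limma) and in 8 of the 12 fits with 1 sample left out (each control, SB-3CT replicate 1, IFNγ replicates 1 and 3, SB-3CT + IFNγ replicates 2 and 3), where its adjusted p-value reached 0.0787, while CD55 passed in all 12. For CFI the difference was 0.01 (95% interval -0.31 to 0.32, adjusted p = 0.985 in limma), its fall with SB-3CT being -0.80 without IFNγ and -0.79 with it. For CD46 it was -0.13 (95% interval -0.33 to 0.07, adjusted p = 0.35 in limma). For C3 it was -0.03 (adjusted p = 0.867 in limma), and with the length trend removed C3 was the 1 member called, in the other direction (0.26, adjusted p = 0.0371 in limma).

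CD59, the inhibitor of the last step of the cascade, was not called in any comparison, and 1 library lay apart in each SB-3CT group. With SB-3CT it was at 27.2, 45.4 and 45.3 FPKM, all under the lowest control at 49.0 FPKM. With SB-3CT + IFNγ it was at 52.3, 31.1 and 53.9 FPKM. SB-3CT replicate 1 lay 0.71 and SB-3CT + IFNγ replicate 2 lay 0.73 below the nearest other sample of its group on the log2 scale. Of the 3177 genes with a mean of at least 1 FPKM, 2 lay more than 0.5 below both other samples in each of these libraries, CD59 and BLOC1S2, which was named after its values were seen. The relative depth of these libraries was 130% and 141%, and that of IFNγ replicate 1, where CD59 was at 55.8 FPKM, was 150%. The part of depth in these low values was not tested. The difference of CD59 with SB-3CT was -0.44 (95% interval -0.87 to -0.00, adjusted p = 0.162 in limma) and -0.20 without SB-3CT replicate 1 (adjusted p = 0.065). Under IFNγ it was -0.28 (95% interval -0.73 to 0.17, adjusted p = 0.301 in limma), or -0.08 relative to the median gene, and -0.03 without SB-3CT + IFNγ replicate 2. Without both libraries, an alternative added after seeing the data, CD59 was higher by 0.22 in SB-3CT + IFNγ than in SB-3CT (adjusted p = 0.0341 in limma), against 0.21 (95% interval -0.48 to 0.90, adjusted p = 0.602) with them, and neither CD55 (-0.43, adjusted p = 0.0605) nor C1R (-0.23, adjusted p = 0.132) passed in the interaction.

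Of 38 other complement genes listed by role, 19 have a row among the genes used here, and 12 of these were under 1 FPKM in all 12 samples. None of the genes of C1q (C1QA, C1QB, C1QC) nor C2 or the C4 genes was analysed here. In the IFNγ comparison, 1 of the 19 was higher (CR1L) and 2 lower (CFD, and C8G, which stayed under 1 FPKM), where 8.46% of all genes were higher and 11% lower, and the median change over the 19 was -0.00. Among the 7 receptors and surface proteins 1 was higher, and of the 3 terminal components 1 was lower.

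CR1L, which encodes a protein related to complement receptor 1, rose from a mean of 0.0692 FPKM in the controls to 1.71, 2.38 and 1.24 FPKM with IFNγ (change 1.36, SE 0.14, adjusted p = 0.00183 in limma) and from 0.0930 FPKM with SB-3CT to 1.97, 1.70 and 2.85 FPKM with SB-3CT + IFNγ (change 1.52, adjusted p = 0.000708 in limma). CFD, the protease factor D of the alternative pathway, fell with IFNγ from 1.53, 1.47 and 1.67 FPKM to 0.921, 1.23 and 0.951 FPKM (change -0.33, adjusted p = 0.0306 in limma), a call lost without any 1 of 5 samples and after median-ratio scaling (-0.30, adjusted p = 0.0566 in limma). CLU encodes clusterin, an inhibitor of the terminal complex. It was the single gene of the list called with SB-3CT alone, where 5.37% of all genes were higher and 6.87% lower, and it rose from 3.17, 2.93 and 3.91 FPKM to 5.15, 4.85 and 4.97 FPKM (change 0.47, SE 0.10, adjusted p = 0.0288 in limma), and with 1 sample left out its adjusted p-value was over 0.05 in 5 of the 6 fits, the highest being 0.107.

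With SB-3CT under IFNγ, 2 of the 19 genes were higher and 1 lower, where 6.41% of all genes were higher and 31.5% lower. CLU was higher at 4.45, 4.31 and 4.37 FPKM against 3.58, 3.38 and 3.58 FPKM (change 0.25, adjusted p = 0.0308 in limma), and CFD at 1.98, 1.36 and 1.41 FPKM against 0.921, 1.23 and 0.951 FPKM (change 0.34, adjusted p = 0.0483 in limma). The lower one was CALR, which encodes calreticulin, a chaperone of the endoplasmic reticulum that can bind C1q at the cell surface. CALR was at 740, 651 and 683 FPKM with IFNγ and at 552, 538 and 516 FPKM with SB-3CT + IFNγ (change -0.37, SE 0.07, adjusted p = 0.00624 in limma). After median-ratio scaling its change was -0.11 and no longer called (adjusted p = 0.265 in limma). The call was kept after quantile normalization (-0.58, adjusted p = 0.00492) and with the length trend removed (-0.29, adjusted p = 0.0141), both in limma. CLU and CFD were each lost in at least 4 of the 6 fits with 1 sample left out, at adjusted p-values of 0.0662 or more for CFD and 0.0675 or more for CLU. CLU was called under each scaling, at 0.46 after the median ratio, 0.55 after quantile normalization and 0.42 with the length trend removed. CFD was called after the first (0.49) and the second (0.56), and not after the last (0.29, adjusted p = 0.0991 in limma).

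**Figure D5:**
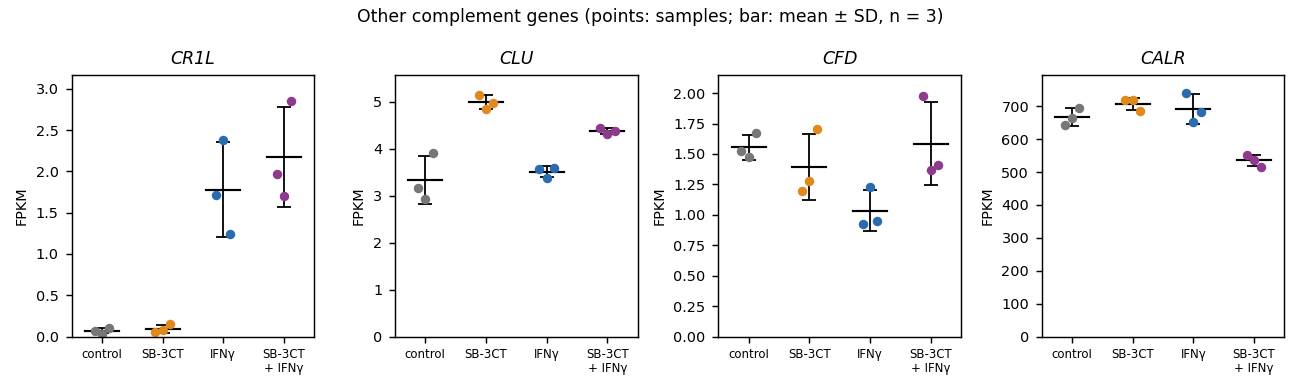
FPKM (vertical axes, starting at 0) of CR1L, CLU, CFD and CALR in the 12 samples. Points are samples and bars are the mean ± SD of 3 samples per group. CR1L is near 0 without IFNγ and lies between 1.24 and 2.85 with it, and CALR lies between 516 and 552 with SB-3CT + IFNγ, under all samples of the other groups.

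As a description of the patterns over the 12 samples, the genes with the most similar course were found by the root mean square difference of log2 values, each gene centred on its mean, among 3176 genes with a mean of at least 1 FPKM. For C1R they were A2M (0.09) and CASP1 (0.11), where C1R itself varied by 1.68 about its mean. C3 was nearest to BATF3 (0.14), C20orf141 (0.15) and CSF1 (0.18), and varied by 1.26. C1S, which varied by 2.52, had no gene as near as these, the closest being CTSS (0.24), BANCR (0.44) and BATF2 (0.56). CFI, which varied by 0.48, was nearest to ERO1B (0.14), CUL2 (0.16) and CRISPLD1 (0.21). For CD46 the nearest were CNOT2 (0.05), ELF2 (0.06) and CCNT2 (0.06), for CD55 F11R (0.11), ABTB2 (0.12) and CRMP1 (0.12), for C1RL ATP6V1B2 (0.10), CYB561 (0.11) and CARD6 (0.11), and for CD59 CERS4 (0.18), ATOH8 (0.21) and C4orf29 (0.21), against own variations of 0.19, 0.35, 0.23 and 0.32.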

How the data were processed

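The authors aligned the RNA-seq reads of 12 A375 samples to hg19 with HISAT2 (version 2.0.5 in the submitters' processing notes) and calculated FPKM with StringTie (version 1.3.3). The deposited log2 values (at most 12.16) were read as log2(FPKM + 1), from which FPKM was computed back. The planned tests assumed FPKM and took its logarithm, a step not needed here. Column names gave the sample of each column, and 0 columns of sample values were left over. Tests across all genes used R 4.3.3 and limma 3.58.1 (linear fits with empirical Bayes variances that follow the mean, unpaired, on the 3 + 3 samples compared, or all 12 for the interaction), with no filter on low values and p-values adjusted by the Benjamini-Hochberg method over 4918 genes, and the functions were tested on simulated data. Exact permutation tests were two-sided.

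The members and lists were chosen with earlier results of these data known. Named are all members, and of the wider complement list at most 5 genes per comparison with an adjusted p-value under 0.05 and a mean of at least 1 FPKM, CXCL10 and CD274 as a check of the labels, and the 3 nearest patterns of each member. Other complement genes were read from a hand-written list, from which some results are not reported here, and positions from GENCODE release 44 mapped to GRCh37 (hg19). Relative depth came from ratios of FPKM below 0.15, and a single set of depths matched each of the 66 sample pairs to 0.05 (log2). The number of reads is unknown, and counting error cannot be stated. Summed FPKM over the genes used here was between 121928 and 129692 per sample. The length trend was removed with GENCODE transcript lengths, matched for 90.6% of the genes, and each sample's summed FPKM was kept. The labels do not state whether same-numbered samples were paired, and the tests took the samples as unpaired. The alternatives are given in the closing section.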

Additional observations from a re-analysis of the deposited data

Results flagged for a closer look

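The change with SB-3CT under IFNγ differed from that without IFNγ in a test of the difference itself (interaction term in limma, 12 samples) for 2 of the 8 members and 1 of the 19 other complement genes, where 22.3% of all genes were called and 17.6% with a lower change under IFNγ. For CD55 the difference was -0.52 on the log2(FPKM + 1) scale, with means of 32.0 FPKM in control, 37.5 FPKM in SB-3CT, 24.6 FPKM in IFNγ and 20.0 FPKM in SB-3CT + IFNγ cells. For C1R it was -0.30, with means of 2.72, 2.55, 41.3 and 31.7 FPKM in the same order. For CALR it was -0.45 (adjusted p = 0.00588 in limma), with means of 667, 707, 691 and 535 FPKM. After median-ratio scaling the difference was -0.24 for CALR (adjusted p = 0.0827), -0.31 for CD55 (adjusted p = 0.0864) and -0.08 for C1R (adjusted p = 0.455), all in limma. The call was kept in 19 of 21 alternatives for CALR, in 16 of 21 for CD55 and in 8 of 21 for C1R. C1R was low without IFNγ, where the log2(FPKM + 1) scale compresses a difference. The median difference of the 3177 genes with a mean of at least 1 FPKM was -0.19. Relative to it, CD55 had -0.33, CALR -0.26 and C1R -0.11.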

How the results depend on the processing

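The rises of C1S, C1R and C3 with IFNγ, with and without SB-3CT, the fall of CD55 with IFNγ in SB-3CT cells and the fall of CFI with SB-3CT under IFNγ kept their direction and their side of the threshold in all alternatives run. Over single genes, 656 of 797 recomputed values did so, 94 were no longer called, 7 became called in the same direction and 40 changed sign, 3 of which, all of C3, were then called, and the cause was not tested. The genes called among the 8 members numbered 5 with IFNγ, 6 with IFNγ in SB-3CT cells, 2 with SB-3CT, 4 with SB-3CT under IFNγ and 2 in the interaction. By the rule of fold change over 1.5 and p under 0.05 before adjustment they numbered 3, 4, 1, 1 and 0. With SB-3CT they numbered 3 among genes with a mean of at least 1 FPKM, where CD55 was higher (adjusted p = 0.0465 in limma), 1 without the variance trend and 0 when each gene was tested on FPKM with its own variance. In the interaction they numbered 1 with a pseudocount of 0.1, 0 after median-ratio scaling, 1 after quantile normalization, 1 without the length trend (C3, which was higher) and 0 without SB-3CT replicate 1 and SB-3CT + IFNγ replicate 2, the last chosen after seeing the data. With 1 sample left out the counts ranged from 4 to 5, 5 to 6, 0 to 2, 3 to 5 and 1 to 2, fits with fewer samples.

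Whether same-numbered samples were paired is not stated in the labels. The correlations of their deviations ranged from -0.39 to 0.17, and with 3 samples a group these cannot settle it. With the replicate number as a block 4, 5, 1, 4 and 2 members were called, and 259 of all genes with SB-3CT against control, against 602 without it. The calls of CD55 with IFNγ (adjusted p = 0.0697), C1RL with IFNγ in SB-3CT cells (adjusted p = 0.0697) and CD46 with SB-3CT (adjusted p = 0.0703) were lost with the block, all in limma.

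Changes of sign concerned values that were not called on the deposited scale. Without the length trend, CD59 changed by -0.033 with IFNγ and by 0.13 with SB-3CT under IFNγ, where C1S had 0.019 and C3 0.33. CD46 with IFNγ in SB-3CT cells had 0.18 after median-ratio scaling, 0.067 after quantile normalization and 0.10 without the length trend, and C1R with SB-3CT had 0.025 after quantile normalization. With SB-3CT under IFNγ, C1S had 0.077 after median-ratio scaling, C3 0.22 after it and 0.13 after quantile normalization, and C1RL 0.029 after quantile normalization. In the interaction, C1S had 0.020 after median-ratio scaling. There C1RL had 0.084, 0.11 and 0.092, C3 0.19, 0.042 and 0.26 and CD46 0.080, 0.014 and 0.085 after median-ratio scaling, quantile normalization and removal of the length trend, and C3 had 0.027 without the 2 libraries named above. With 1 sample left out, the ranges were -0.12 to 0.0089 for CD46 and -0.028 to 0.46 for CD59 with IFNγ in SB-3CT cells, -0.016 to 0.15 for C1S and -0.033 to 0.033 for C3 with SB-3CT, and -0.046 to 0.0014 for C3 with SB-3CT under IFNγ. In the interaction they were -0.057 to 0.0093 for C3, -0.080 to 0.097 for CFI, -0.082 to 0.41 for CD59 and -0.16 to 0.061 for C1RL. The alternatives for the other complement genes were added later. Without read counts, no counting error can be given for values near 0, such as those of C1S without IFNγ.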
